A study of Mus musculus with 12 samples.

Results

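The cytosolic ribosomal protein genes encode the proteins of the ribosome that makes most of a cell's proteins. They were taken by gene symbol: symbols that start with Rpl or Rps and a digit, or with Rplp, and Rpsa, leaving out the S6 kinases (Rps6k) and symbols of pseudogenes. The longest transcript was kept for each symbol, which gave 83 genes of 19012 in all. Of these, 31 encode proteins of the small subunit, 45 proteins of the large subunit and 6 paralogs of a ribosomal protein (Rpl3l, Rpl7l1, Rpl22l1, Rpl36al, Rpl39l and Rps27l). The remaining gene, Rps19bp1, matched by its symbol but encodes a protein that binds Rps19. Rplp0 is listed in the deposited data under its older symbol Arbp and so is not among the 83, and Rpl10l, Rps4l and Rps4y2 were not analysed here.

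Polyadenylated RNA of 12 mouse liver libraries was sequenced on the SOLiD system. There were 4 wild-type livers, 4 livers of double knockout mice that lack the transcriptional repressors E2f7 and E2f8 (DKO liver) and 4 liver tumors of such mice (DKO tumor). DKO liver and DKO tumor of the same number carry the same animal code in the deposited names, so each DKO liver came from a tumor-bearing mouse, and the wild-type livers came from other animals. Age, sex, strain and how the genes were deleted are not given in the sources used here.

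A ribosome holds 1 copy of nearly every one of these proteins, and cells tend to make them in matched amounts. Their messenger RNAs begin with a 5' terminal oligopyrimidine (TOP) tract, a C followed by further C and T, through which the kinase mTOR and the protein Larp1 control their translation. Growing cells make more ribosomes, and MYC is known to raise these genes. The genes have given rise to many processed pseudogenes, copies of the messenger RNA that were inserted back into the genome, and a short read from the gene can match such copies as well.

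The extent of that copying is shown by 4 stretches of 35 bases, each the stretch of its coding sequence that the most other genes hold, taken from GENCODE M21 transcripts. Rpl7a, Rpl21, Rpl29 and Rps2 are the members with the most pseudogenes among the 83.
Rps2: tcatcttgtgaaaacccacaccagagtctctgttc
Rpl29: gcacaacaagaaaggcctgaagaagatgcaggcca
Rpl21: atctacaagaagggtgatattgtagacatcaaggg
Rpl7a: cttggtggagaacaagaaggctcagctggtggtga
The stretch of Rps2 was found in 43 other genes, that of Rpl29 in 47, that of Rpl21 in 58 and that of Rpl7a in 68. Over all their 35-base stretches, 81 of the 83 members shared at least 1 with a pseudogene.

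The TOP tracts were looked for in RefSeq promoters of build GRCm38.p6, which were matched for 63 of the 83 members. A window of 30 bases, 15 before the annotated start and 15 after it, was searched on the gene's strand for a run of at least 8 C or T that begins with C. Windows of 6 genes that hold such a run follow, 5' to 3', with the run in capitals. They belong to an abundant member (Rpl4), to members at the low and high ends of the tumor comparisons below and to a stalk protein.
Rpl4, chr9:64173372-64173401, plus strand: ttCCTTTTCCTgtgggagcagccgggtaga
Rplp2, chr7:141447636-141447665, plus strand: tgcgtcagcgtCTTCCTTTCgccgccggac
Rpl13a, chr7:45128731-45128760, minus strand: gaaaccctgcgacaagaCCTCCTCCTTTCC
Rps10, chr17:27635230-27635259, minus strand: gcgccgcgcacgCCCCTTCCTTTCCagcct
Rpl27a, chr7:109519180-109519209, plus strand: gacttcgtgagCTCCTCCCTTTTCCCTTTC
Rpl22l1, chr3:28805493-28805522, plus strand: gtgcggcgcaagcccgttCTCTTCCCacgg
Such a run was found for 26 of 63 members (41.3%), against 10.8% of 27018 genes with a RefSeq promoter. In the 300-base promoters, on both strands, the GABP letters CCGGAAGT were found for 19.0% of members and 4.31% of all genes. The YY1 letters AAGATGGC were found for 9.52% and 3.19%, and TATAAA for 9.52% and 15.7%. E2F letters (TTTCGCGC, TTTGGCGC or TTTCCCGC, TTTCCCGC can overlap a pyrimidine run) were found for 2 members, Rps3a and Rpsa, or 3.17%, against 2.12% of all genes. These matches describe letters only.

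Levels are given in RPKM, read numbers divided by exon length and by library depth. This scale is per length and so can be set side by side between genes. The 83 members spanned the whole range from abundant to barely detected. Among the abundant members, Rpl4, which lines the exit tunnel for the new protein, had a mean of 196 RPKM over the 12 libraries. Rpl8, near the centre that joins amino acids, was at 182 RPKM and Rps14 of the small-subunit platform at 151. The 8 members at 100 RPKM or more held 54.3% of the summed RPKM, 26 members between 10 and 100 RPKM held 40.5%, 33 between 1 and 10 held 4.77% and 16 under 1 RPKM held 0.384%. At the low end stood Rpl29 (0.0438 RPKM), Rpl3l (0.0462), Rpl39l (0.0463) and Rpl21 (0.470). Median levels were 5.92 RPKM for the small subunit and 4.56 RPKM for the large subunit.

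Low levels went with shared sequence. The 14 members with under 30% of their 35-base stretches shared with another gene had a median of 37.4 RPKM, the 25 with 30 to 60% had 10.7, the 24 with 60 to 80% had 6.64 and the 20 with 80% or more had 1.55. Across the 83 genes Spearman's rho of mean RPKM was -0.37 with the shared percentage, -0.45 with the number of pseudogenes and -0.01 with exon length. All genes share the same 12 libraries and 1 counting procedure, and genes are not independent replicates. Rpl8 shared 9.55% of its stretches with other genes, whereas Rpl29 shared 76.9% and Rps2 83.3%. The genes that shared a stretch included 114 pseudogenes for Rpl29 and 89 for Rps2. There were exceptions. Rps4x, the X-linked small-subunit protein, stood at 101 RPKM with 77.6% shared. Rpl21 at 0.470 RPKM shared only 26.8% of its GENCODE transcript with other genes, though these included 103 pseudogenes. All shared percentages are of GENCODE transcripts, whose length can differ from that of the transcript with the RPKM. The sources used here do not state how reads that match several places were counted, so a low level in these data cannot be told apart from reads lost to or shared with copies.

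**Figure D1:**
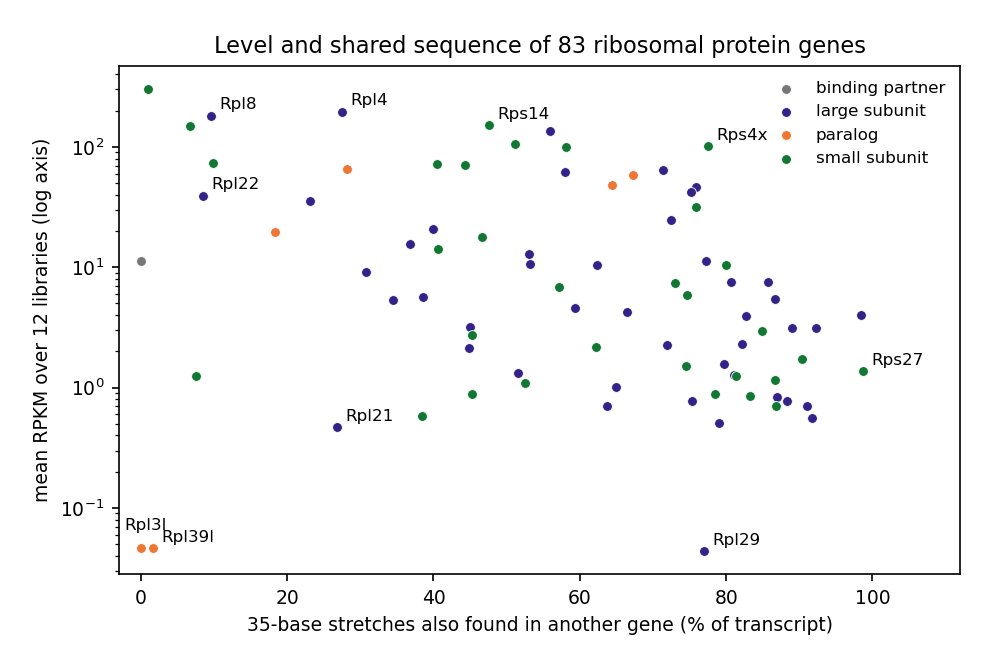
Mean RPKM over 12 libraries (log axis) of the 83 members against the percentage of their 35-base stretches that also occur in another gene. Points are genes, coloured by class. Rpl8 stands at 182 RPKM with 9.55% shared, no member with 80% or more shared exceeds 7.60 RPKM, and the low points at the left are the paralogs Rpl3l and Rpl39l.

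Ribosomal proteins outside the symbol rule were as uneven. Gnb2l1 (Rack1), a scaffold on the small subunit, stood at 353 RPKM with 2.62% shared. Arbp, the stalk base Rplp0, stood at 50.03 RPKM. Fau, whose product is a ribosomal protein fused to a ubiquitin-like protein, stood at 7.67 RPKM.

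Paralogs were often listed above their better known partners. Rps27l, a p53 target in human cells, was at 64.9 RPKM against 1.38 for Rps27, which shared 98.7% of its stretches with other genes. Rps27l itself shared 28.2%. Rpl36al (64.4% shared) was at 48.6 RPKM against 5.42 for Rpl36a (86.6% shared). Rpl22l1 was at 58.6 RPKM with 67.2% shared, against 39.4 for Rpl22, which shared only 8.54%. In contrast Rpl7 was at 46.3 RPKM and Rpl7l1, its relative in ribosome assembly, at 19.7. Rpl39 was at 35.5 RPKM, while Rpl39l, known from germ cells, had at most 3 reads in a library. Rpl3l, known from muscle, had at most 1 read in a library, and Rpl3 itself was at 0.840 RPKM with 86.9% shared.

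Rpl29, Rpl3l and Rpl39l were too low to test, and the other 80 members were. Rpl29 had 1, 0, 1 and 0 reads across wild-type livers, 1, 0, 1 and 0 across DKO livers and no read in any tumor. An observation of 0 reads allows up to 3 reads, or 0.265 to 0.333 RPKM in the tumors, so no difference of Rpl29 was detectable at this depth. Rpl3l had 1 read in all wild-type livers together, 4 across DKO livers and 2 in the tumors.

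The 83 members together took 0.141 to 0.271% of the reads of a library. Their summed RPKM was 2900.4, 2255, 2524 and 2536 across wild-type livers, 3329, 2262, 3303 and 1690.4 across DKO livers and 1754, 2012, 2124 and 2525 across the tumors. DKO livers 1 and 3 held the highest sums and DKO liver 4 the lowest of all 12, and the 3 groups overlapped. The means were 2554 ± 265.1, 2646 ± 808 and 2104 ± 321 RPKM (SD, n = 4 each). In bulk tissue, fewer cells of a type and less RNA per cell cannot be told apart.

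Members moved together from library to library. Over the 43 members with a mean of 5 RPKM or more, the median Pearson r of log2(RPKM + 1) between 2 members was 0.61 across the 12 libraries, and 834 of 903 pairs were above 0. Rpl8 followed the mean of the other members closely (r = 0.91). Rpl7l1 (-0.00), Rpl27a (0.02), Rpl22l1 (0.16), Rps14 (0.19) and Rpl23 (0.22) hardly did. DKO liver 4 was the lowest library for 20 of the 43 members and DKO tumor 1 for 13, whereas DKO liver 1 was the highest for 15, DKO liver 3 for 13 and wild-type liver 1 for 9. The libraries share depth and preparation, so these r are descriptions. Whether members moved together more than other genes was not tested. Deviations are from the gene's mean over 12 libraries. In DKO livers 1, 3 and 4 and DKO tumor 1 the 43 members' median log2 deviation was 0.55, 0.47, -0.50 and -0.46. Other genes under 1000 exon bases stood at 0.21, 0.40, -0.30 and -0.44 there, and all other genes tested at 0.07, 0.27, -0.11 and -0.31. In wild-type liver 1 the medians were 0.41, 0.23 and -0.08.

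**Figure D2:**
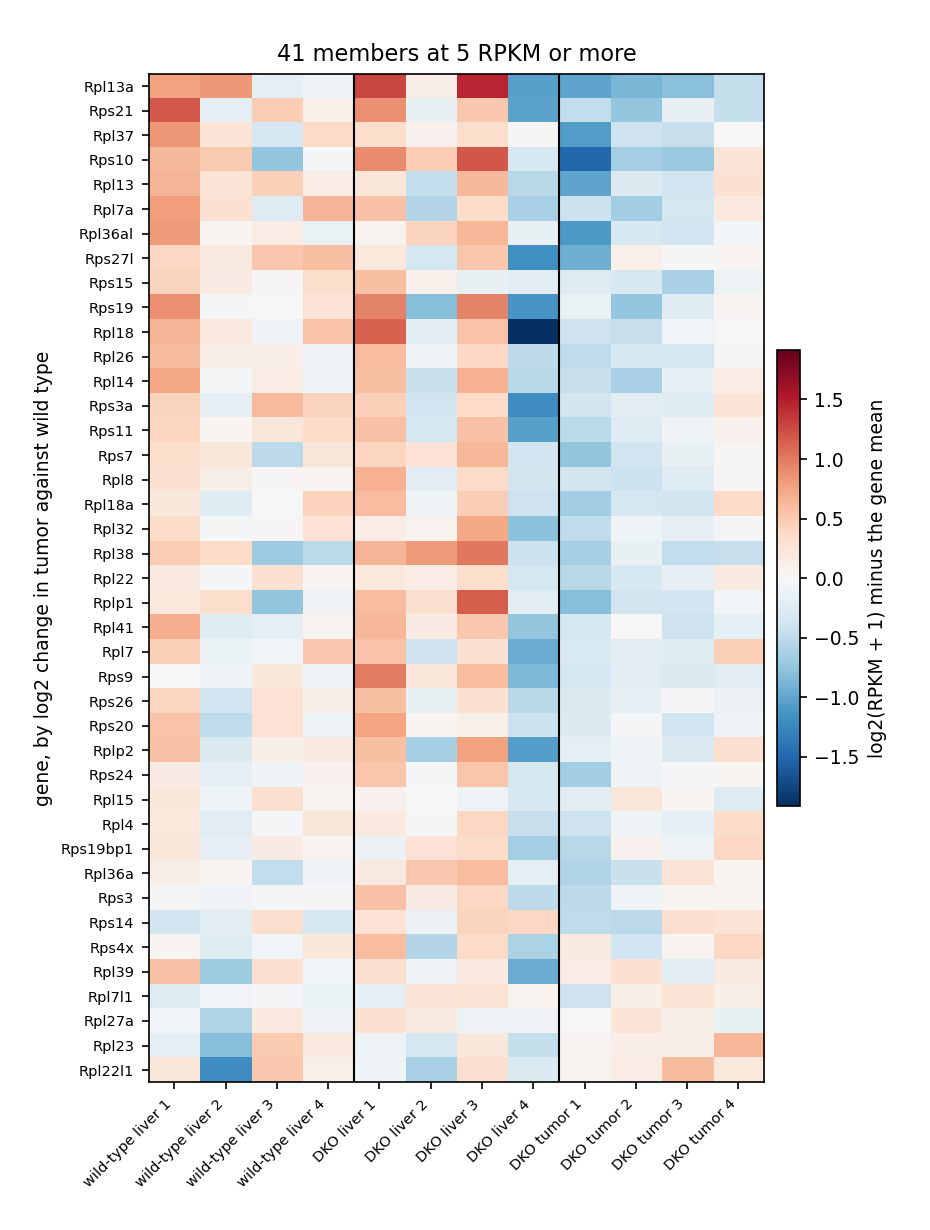
Log2(RPKM + 1) minus the gene's mean over 12 libraries, by colour, for 41 of the 43 members at 5 RPKM or more (rows) in each library (columns). Rows are ordered by the difference between DKO tumor and wild-type liver, from Rpl13a to Rpl22l1. DKO livers 1 and 3 are mostly red, DKO liver 4 and DKO tumor 1 mostly blue, and black lines part the groups.

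The first comparison asked how the tumors differ from wild-type liver. Most members stood lower in the tumors, by amounts that no single gene carried past the test. Of the 80 tested, 69 (86.25%) had a log2 difference under 0, against 52.9% of all 11351 genes tested, and the median was -0.30 against -0.02. The medians were -0.28 for the small subunit, with 27 of 31 under 0, and -0.33 for the large subunit, with 39 of 44 under 0. None passed limma's test at an adjusted p (Benjamini-Hochberg) under 0.05, a call that 1.9% of all genes received (1.23% higher and 0.67% lower). At an unadjusted p under 0.05 there were 13 members, all lower, where 10.4% of all genes were lower and 8.77% higher. In 10 members the 4 tumors all lay under the 4 wild-type livers and in 0 above them, which held for 6.32% and 5.57% of all genes. With voom on recovered reads 0 members passed and 8 had an unadjusted p under 0.05.

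Rpl13a, a large-subunit protein that is also known to silence messenger RNAs in inflammation, had the lowest difference (mm9 chromosome 7, 52381145 to 52384104). It was at 87.8, 91.9, 45.2 and 48.2 RPKM across wild-type livers, 126, 55.9, 143 and 24.3 across DKO livers and 24.9, 27.4, 28.9 and 37.0 in the tumors. The tumors were tight and under every wild-type liver, but DKO liver 4 was lower still. The log2 difference of tumor to wild-type liver was -1.12 (SE 0.47, adjusted p = 0.217 in limma). Wild-type livers 1 and 2, whose file names carry the tag L02, lay above wild-type livers 3 and 4, which carry the tag L03 like all tumors. Within L03 the difference was -0.66 (adjusted p = 0.405).

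In the small subunit, Rps21 and Rps10 had the lowest differences. Rps21 was at 30.1, 11.4, 18.1 and 13.7 RPKM across wild-type livers, 24.1, 11.5, 18.7 and 5.79 across DKO livers and 8.98, 7.25, 11.4 and 9.02 in the tumors, a log2 difference of -0.85 (SE 0.37, adjusted p = 0.240) between tumor and wild-type liver. Rps10, mutated in some patients with Diamond-Blackfan anemia, was at 14.4, 13.2, 4.99 and 8.71, then 17.8, 13.05, 21.8 and 6.96, then 2.52, 5.36, 5.13 and 10.9 RPKM in the same order (-0.74, SE 0.42, adjusted p = 0.356). In both genes the tumors overlapped the wild-type livers, and within L03 Rps10 stood at -0.26. Rps6, the target of S6 kinase, had one of the 5 highest differences, at 0.25 (2.63 ± 0.760 RPKM in wild-type livers and 3.26 ± 0.607 in tumors, adjusted p = 0.489).

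Rps2 had the smallest adjusted p of any member, 0.0675, and is named because of it, after its values were seen. It was at 1.72, 0.823, 1.60 and 0.593 RPKM across wild-type livers, 1.05, 1.05, 1.11 and 0.796 across DKO livers and 0.463, 0.249, 0.369 and 0.351 in the tumors. The tumors lay under all livers. These values rest on 3 to 18 reads per library and on a gene with 89 pseudogenes.

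In the large subunit, Rpl6 and Rpl37 followed Rpl13a. Rpl6 was at 7.71, 6.28, 4.69 and 6.05 RPKM across wild-type livers, 4.07, 2.86, 6.32 and 1.77 across DKO livers and 1.29, 2.002, 3.16 and 5.02 in the tumors (-0.97, SE 0.32, adjusted p = 0.122). Tumor 4 overlapped the wild-type range. Rpl37 was at 6.70 ± 2.50 RPKM in wild-type livers and 3.48 ± 1.29 in tumors (-0.77, SE 0.25, adjusted p = 0.119), with tumor 4 again among the livers. Rpl8 was at 218, 193, 180.3 and 183 RPKM in wild-type livers and 139, 134, 149 and 180.0 in tumors, which did not overlap, but by a small margin (-0.37, SE 0.23, adjusted p = 0.410). The large-subunit genes with the highest differences were Rpl27 and Rpl23, both at 0.30, and Rpl27a at 0.19. Rpl23, whose product can bind the p53 regulator MDM2, was at 19.99 ± 7.52 RPKM in wild-type livers and 23.9 ± 5.14 in tumors (adjusted p = 0.566). Rpl27 rested on 1 to 12 reads per library.

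The stalk, which recruits elongation factors, was no exception. Rplp1 was at 59.1 ± 17.8 RPKM in wild-type livers and 46.0 ± 9.86 in tumors (-0.33, adjusted p = 0.606), and Rplp2 at 26.1 ± 6.41 and 22.4 ± 4.60 (-0.20, adjusted p = 0.824). Paralogs went both ways. Rpl36al was at 81.5, 47.2, 50.7 and 42.2 RPKM in wild-type livers and 20.8, 37.2, 35.5 and 44.1 in tumors (-0.67, SE 0.27, adjusted p = 0.185), with only tumor 4 inside the wild-type range. Rps27l was at 80.2, 68.6, 87.6 and 91.1 RPKM in wild-type livers and at 31.3, 65.0, 59.1 and 62.5 in tumors, all lower (-0.63, SE 0.33, adjusted p = 0.322). Rpl22l1, whose RNA is known to be held down by its partner Rpl22, had the highest difference of all members at 0.34 (SE 0.32, adjusted p = 0.621). It was at 65.6, 24.1, 80.4 and 59.8 RPKM in wild-type livers and 58.9, 61.6, 85.2 and 64.2 in tumors, so that only wild-type liver 2 lay apart from the rest, and within L03 it stood at -0.05. Rpl22 itself was at 42.4 ± 4.56 and 34.0 ± 7.32 RPKM (-0.33, adjusted p = 0.377). The binding partner Rps19bp1 was at 11.7 ± 1.39 and 11.01 ± 3.09 RPKM (-0.11, adjusted p = 0.858).

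**Figure D3:**
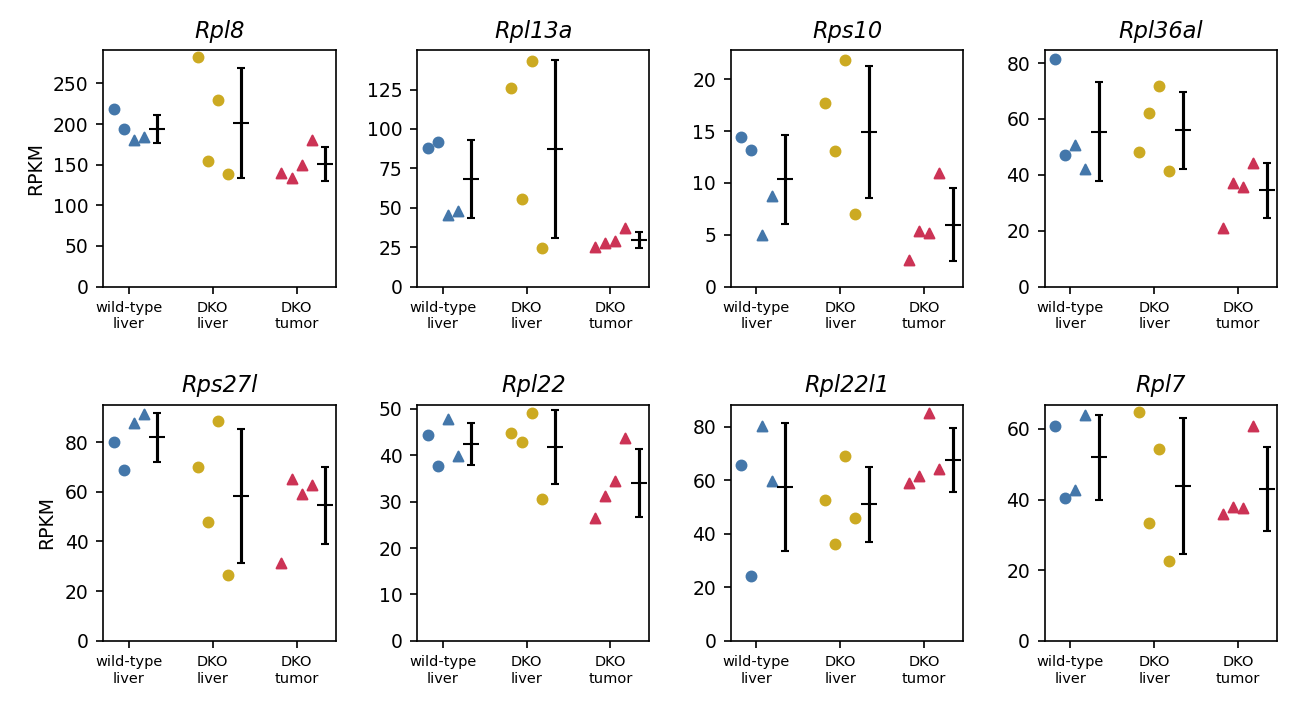
RPKM per library of 8 members in wild-type liver, DKO liver and DKO tumor, with the group mean and SD in black (n = 4). Circles carry the file-name tag L02 and triangles L03. Rpl13a tumors sit between 24.9 and 37.0 RPKM under all wild-type livers, while Rpl22l1 tumors reach 85.2 RPKM.

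A lower level in the tumors was shared by other short transcripts. Among genes that are not members, the median log2 difference of tumor to wild-type liver was -0.44 under 500 exon bases (89 genes), -0.26 at 500 to 749, -0.21 at 750 to 999 and -0.15 at 1000 to 1499, and it reached 0.08 at 6000 or more. Ribosomal protein genes are short: 66 of the 80 tested members have under 1000 exon bases, and their median was -0.32 against -0.25 for 872 other genes of that length. When each library was centred by exon length in 20 bins, the members' median went from -0.30 to -0.03, with 44 of 80 under 0. Rpl13a then stood at -0.81 (adjusted p = 0.195).

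The same shift could be read in each library. The median deviation of short genes (under 1000 exon bases) minus that of long genes (over 4000), members left out, was 0.43, -0.06, 0.03 and 0.16 across wild-type livers, 0.18, -0.01, 0.22 and -0.22 across DKO livers and -0.21, -0.26, -0.18 and -0.07 in the tumors. DKO liver 4, with the lowest sum of ribosomal protein RNA, stood with the tumors, and wild-type liver 1 stood highest. The part of transcript length, or of whatever differs between libraries with it, in the members' levels was not tested.

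**Figure D4:**
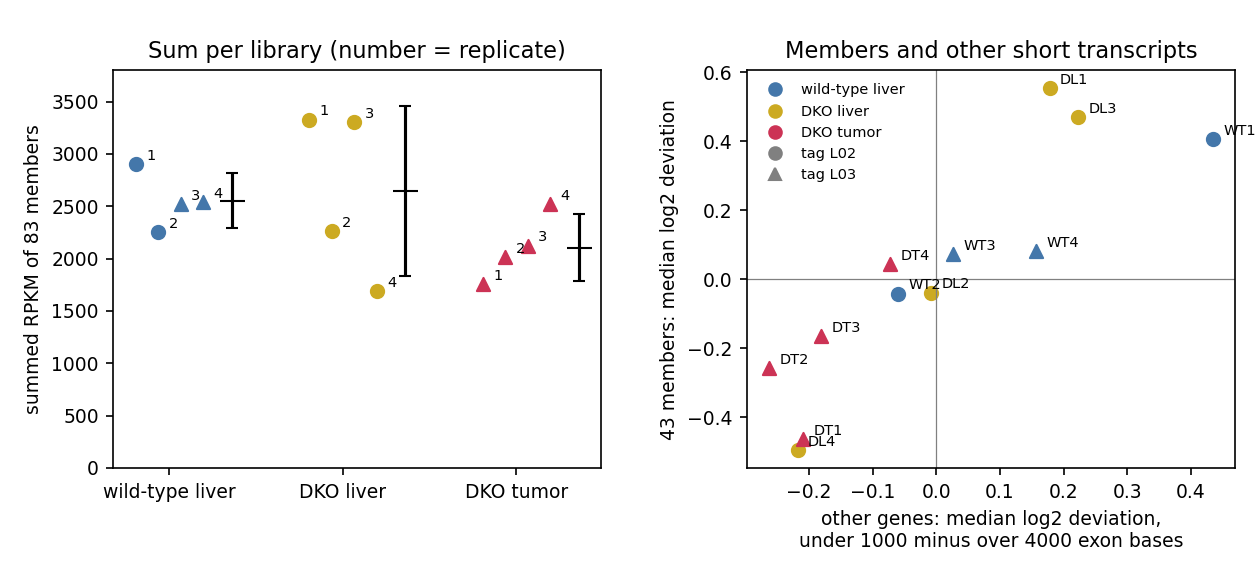
Left, summed RPKM of the 83 members per library, with mean and SD in black (n = 4). Right, the median log2 deviation of the 43 members at 5 RPKM or more (from each gene's mean over 12 libraries) against that of other genes, short minus long; colours are groups, circles the tag L02 and triangles L03, and WT, DL and DT stand for wild-type liver, DKO liver and DKO tumor. DKO livers 1 and 3 and wild-type liver 1 are high on both axes, and DKO liver 4 and DKO tumor 1 low on both.

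**Figure D5:**
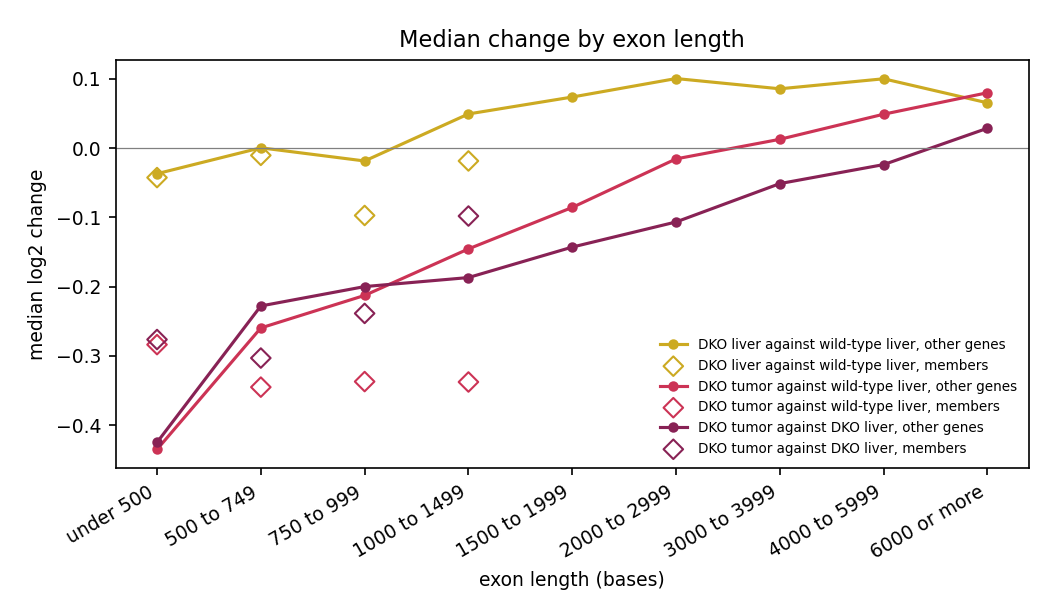
Median log2 difference by exon length for the 3 comparisons; lines with dots are genes that are not members and diamonds are members, drawn where a bin holds at least 5. For tumor against wild-type liver other genes go from -0.44 under 500 bases to 0.08 at 6000 or more, and the members lie at -0.28 to -0.35 in the bins drawn.

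Tumors were next compared with the liver of the same animals. The members' median log2 difference was -0.27 against -0.09 over all genes, and 64 of 80 were under 0 (80%) against 62.8%. None passed the test, a call made for 0.00881% of all genes, and 11 had an unadjusted p under 0.05, all lower, where 12% of all genes were lower and 4.01% higher. In 4 of the 80 (Rpl35, Rpl37, Rps2 and Rps27a, named after their values were seen) all tumors lay under all DKO livers, which 4.08% of all genes did, and in 0 above them (2.12%). With voom 0 passed and 8 had an unadjusted p under 0.05. After median-of-ratios scaling the members' median was -0.15 against 0.02 over all genes, with 52 of 80 under 0. Quantile normalization gave -0.13 against 0.01, also with 52 under 0. With the animal as a block 0 of the members passed, with a smallest adjusted p of 0.0825.

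The animals did not behave alike. Over the 43 members at 5 RPKM or more, the median log2 difference of tumor to its own liver was -1.01 in animal 1, -0.15 in animal 2, -0.62 in animal 3 and 0.58 in animal 4. The tumor was lower for 41, 29 and 40 members in animals 1 to 3, and for 4 in animal 4. The same counts over all genes are not given here. The median log2 deviation of all other genes tested moved in the same direction in each animal. It was 0.07, -0.02, 0.27 and -0.11 in the livers of animals 1 to 4 and -0.31, -0.07, 0.11 and 0.08 in their tumors. The pairs of liver and tumor rest on the animal codes. Over all genes tested, the deviations of tumors 1 and 4 correlated best with the liver of another animal. Animal 4 was the one whose liver library had the lowest sum of all. Without DKO liver 4 the members' median over the groups was -0.45 against -0.15 over all genes. In that fit 29 members had an unadjusted p under 0.05 in limma, and the share of all genes at that p is not given here. Without animals 1 and 2 the members' median was -0.05 against 0.02 over all genes.

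Rpl13a and Rps10 again had the lowest group differences, at -1.24 (SE 0.47, adjusted p = 0.221) and -1.22 (SE 0.42, adjusted p = 0.191). By animal, Rpl13a stood at -2.30, -1.004, -2.27 and 0.59 and Rps10 at -2.42, -1.14, -1.90 and 0.58, the same 3 animals against 1. Rpl38, which is known to favour translation of Hox messenger RNAs, was at 18.8, 21.3, 24.4 and 8.47 RPKM across DKO livers and 7.13, 10.5, 8.15 and 8.30 in the tumors (-0.94, SE 0.32, adjusted p = 0.190). Its wild-type livers were at 16.6 and 15.2 RPKM with the tag L02 and at 6.84 and 7.81 with L03, and all DKO livers carry L02. With the tag as a covariate, which only the 4 wild-type livers inform, the log2 difference of Rpl38 between tumor and DKO liver was 0.09, that of Rpl13a -0.31 and that of Rps10 -0.26. Rplp1 was similar, at 87.6 ± 35.1 RPKM in DKO livers and 46.0 ± 9.86 in tumors (-0.86, adjusted p = 0.192). Rpl35, which sits at the mouth of the exit tunnel, was at 4.39, 6.39, 5.74 and 6.202 RPKM across DKO livers and 1.94, 2.79, 3.71 and 2.94 in the tumors, with no overlap (-0.81, SE 0.23, adjusted p = 0.133). With the tag as a covariate Rplp1 stood at -0.18 and Rpl35 at -0.17. Rpl35 rested on 11 to 32 reads per library, and 98.5% of its stretches are shared with other genes.

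The members with the highest differences to DKO liver were Rpl30 (0.46), Rpl22l1 (0.42), Rpl23 (0.40), Rpl39 (0.23) and Rpl27 (0.22), with adjusted p from 0.465 to 0.738. Rpl30 was at 6.09, 2.10, 2.56 and 1.13 RPKM across DKO livers and 3.74, 4.70, 4.79 and 2.80 in the tumors, where DKO liver 1 lay above every tumor. Rpl23 was at 18.6, 15.7, 23.4 and 14.2 RPKM across DKO livers and 20.6, 21.8, 21.7 and 31.6 in the tumors. Rpl22l1, Rpl23 and Rpl27 were thus among the 5 highest members in both tumor comparisons, which share the tumor libraries. Against DKO liver and after centring by exon length Rpl22l1 and Rpl23 stood at 0.71 and 0.60, with adjusted p of 0.195 and 0.166. With the tag as a covariate, which only the 4 wild-type livers inform, their sign turned, to -0.36 and -0.43. Against wild-type liver within L03 they stood at -0.05 and -0.11.

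Liver without E2f7 and E2f8 was last compared with wild-type liver. The members went both ways: the median log2 difference was -0.06 against 0.08 over all genes, and 48 of 80 were under 0 (60%) against 39.5%. None passed, as for 0% of all genes, 1 had an unadjusted p under 0.05 in each direction (Rpl35 higher and Rpl5 lower, where 9.16% of all genes were higher and 3.24% lower), and in no member did the groups lie apart, against 5.62% of all genes higher and 1.96% lower. Voom also called 0, with 1 member at an unadjusted p under 0.05. The smallest adjusted p was 0.325. Without DKO liver 4 the median was 0.13, without DKO liver 2 it was 0.00 and without wild-type liver 1 it was 0.04. Its sign thus turned with single libraries. The medians over all genes in these fits were 0.13, 0.10 and 0.07, so the members' median did not exceed them. After median-of-ratios scaling it was -0.15 against -0.01 over all genes, with 54 of 80 members under 0.

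Members at the ends differed within a spread of libraries just as wide. Rpl6 (-0.67), Rpl30 (-0.65), Rps27l (-0.61) and Rps27 (-0.51) were at the low end, with adjusted p from 0.408 to 0.503. Of these, Rpl30 was at 4.17, 3.97, 7.67 and 3.57 RPKM across wild-type livers. DKO liver 1 lay within that range and the other DKO livers below it. At the other end Rpl35 stood at 0.64 (SE 0.23, adjusted p = 0.325). It was at 5.82, 3.11, 2.05 and 2.80 RPKM across wild-type livers, and only wild-type liver 1 reached the DKO range. Rpl38 (0.61), Rplp1 (0.53), Rps10 (0.48) and Rpl12 of the stalk base (0.44) followed, with adjusted p from 0.452 to 0.640. With the tag as a covariate Rpl35 stood at 0.33, Rpl38 at 0.10, Rplp1 at 0.19 and Rps10 at -0.00.

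The rest of the machinery was described through 9 lists of genes. For tumor against wild-type liver the medians were -0.06 over 48 ribosome biogenesis factors (27 under 0), -0.03 over 11 RNA polymerase I and rDNA factors (6), and -0.07 over 25 initiation factors (16). The median was -0.21 over 19 translation factors and other TOP genes, of which 16 were under 0. In these 4 lists no gene passed the test in any of the 3 comparisons. Eef2 and Eef1a1, the elongation factors, were the highest of the TOP list. Eef2 was at 405 ± 72.6 RPKM across wild-type livers, 501 ± 151 across DKO livers and 339.9 ± 39.0 across tumors (-0.24 for tumor against wild-type liver, adjusted p = 0.636). Eef1a1 was at 358, 356, 411 and 423 RPKM in wild-type livers and 307, 305, 324 and 413 in tumors, which overlapped (-0.21, adjusted p = 0.643). Npm1, which carries ribosomal particles out of the nucleolus, stood at -0.01 (adjusted p = 0.984) and Emg1, a methyltransferase of the small subunit's RNA, at -0.28 (adjusted p = 0.477). Eif5a stood at -0.05 and Eif4g2 at 0.10, and the polymerase I genes Znrd1 and Rrn3 at 0.29 and -0.03.

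Of 27 mTOR, MYC and other regulators none passed in any comparison, and the median for tumor against wild-type liver was -0.04 with 15 under 0. Myc was at 6.47, 5.11, 2.56 and 2.90 RPKM across wild-type livers, 2.28, 1.99, 10.1 and 2.56 across DKO livers and 1.25, 1.64, 5.07 and 2.19 in the tumors (-0.61, SE 0.43, adjusted p = 0.478). Its highest library was DKO liver 3, and the groups overlapped. Eif4ebp2, a translation brake under mTOR, stood at -0.24 and Pdcd4, an inhibitor of initiation, at -0.23. Of the ribosomal proteins outside the symbol rule, Gnb2l1 stood at -0.06 and Fau at -1.04 (adjusted p = 0.199).

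Subunits of 3 other large complexes were described in the same way. The median for tumor against wild-type liver was -0.34 over 73 mitochondrial ribosomal proteins (69 under 0), -0.54 over 72 respiratory chain subunits (70 under 0) and -0.20 over 38 proteasome subunits (29 under 0), and none of their genes passed. At an unadjusted p under 0.05, 19, 38 and 5 of them were lower, beside 13 of the 80 cytosolic ribosomal protein genes. Mrpl12 was at 53.0 ± 8.07 RPKM in wild-type livers and 34.0 ± 7.07 in tumors (-0.64, adjusted p = 0.117), and Mrpl20 at 56.3 ± 10.6 and 63.2 ± 27.3 (0.08). Atp5b stood at -0.39 and Atp5e at 0.01, and Psmb1 at -0.39 and Psmb6 at -0.52. The differences between these lists were not tested.

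Outside the rule, the genes at 5 RPKM or more whose log2 values best followed the mean of the members over the 12 libraries were Chmp2a (r = 0.96), Mrpl34 (0.96), Mrpl3 (0.95), Elof1 (0.95) and Idh3g (0.95), chosen as the 5 highest of 6095. Chmp2a, a subunit of the membrane-cutting ESCRT-III complex, was at 56.9, 39.1, 39.1 and 50.4 RPKM across wild-type livers, 55.8, 35.7, 58.8 and 22.9 across DKO livers and 28.9, 29.9, 35.1 and 46.5 in the tumors. Like the sum of the members, it was lowest in DKO liver 4. The 5 genes have 646 to 1531 exon bases.

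Members were also split by whether the window around the annotated start held a pyrimidine run. Such a run can lie wholly before the annotated start, as in Rpl4. The split is thus one of windows and does not part messenger RNAs with and without a TOP tract. The 26 members with a run had a median of 10.6 RPKM and the 37 without one 3.18. Their median log2 differences of tumor to wild-type liver were -0.26 and -0.31, and of tumor to DKO liver -0.19 and -0.29, over 26 and 35 tested members. The members Rps3a and Rpsa, which hold E2F letters, had a median of -0.35 in tumors and -0.27 in DKO livers, both relative to the wild type, against -0.28 and -0.05 for the 59 tested members without them. The first pair of medians rests on 2 genes. Of the 5 lowest members for tumor against wild-type liver, Rpl13a and Rps10 hold a run and Rpl6, Rps21 and Rpl37 do not. Of the 5 highest, Rpl22l1, Rps6 and Rpl27a hold one and Rpl27 and Rpl23 do not.

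Across the series, depth was 7.98 to 16.0 M reads per library, and 1 read in 2 kb of exons was worth 0.0313 to 0.0626 RPKM. E2f7 was at 0.138 ± 0.0433, 0.281 ± 0.0838 and 0.179 ± 0.101 RPKM and E2f8 at 2.70 ± 1.13, 9.75 ± 7.70 and 5.70 ± 4.60 in wild-type liver, DKO liver and tumor. These values sum all exons and do not check the deletion. All 10 hepatocyte markers were present in every group. Their sums were 56498 to 80588 RPKM in wild-type livers, 49947 to 123020 in DKO livers and 82062 to 140835 in tumors. Every tumor sum lay above every wild-type sum, by a small margin, and 5.57% of all single genes lay apart that way. The median log2 difference of the 10 markers was 0.17 for tumor against wild-type liver and -0.01 for tumor against DKO liver. The summed 10 macrophage markers were 156 to 404 RPKM in wild-type livers, 271 to 827 in DKO livers and 88.7 to 346 in tumors, none at 0 throughout a group, and the 14 lymphocyte markers were 7.10 to 20.9, 11.1 to 30.5 and 3.905 to 18.3. The 6 neutrophil markers summed to 5.88 to 12.4, 9.78 to 149 and 4.48 to 36.4 RPKM, and the 8 stellate cell and fibroblast markers to 101.5 to 141, 106 to 346 and 57.8 to 238. The 5 cholangiocyte markers summed to 28.8 to 41.03, 36.9 to 183 and 41.3 to 139.9 RPKM, and 1 of them, Cdh1, rose in tumors against wild-type liver, the only marker of any type that passed the test in any comparison. Median log2 differences follow for the tested macrophage, lymphocyte, neutrophil, stellate cell and cholangiocyte markers, in that order. For DKO liver against wild-type liver they were 0.84, 0.25, 1.57, 0.78 and 0.76. For tumor against wild-type liver they were -0.72, -0.23, 0.26, 0.14 and 0.67. For tumor against DKO liver they were -1.50, -0.55, -1.45, -0.87 and 0.10. The part of these cell types and of hepatocytes in the members' levels was not tested.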

How the data were processed

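RPKM per transcript was deposited by the authors for 12 libraries, 21247 transcripts each. The submitters' processing notes name BWA and mm9 without roles, and the counting tool, read length and treatment of multiply matching reads are not given in the sources used here. RPKM times exon length gave whole reads for 99.987 to 99.994% of values per library (tolerance 0.05 read), which gave the depths. Reads carry no molecular identifiers, so limits for 0 reads cover counting error only. Genes with at least 0.5 RPKM in 4 or more libraries (11351) were fitted on log2(RPKM + 1), which understates differences of low genes, with limma 3.58.1 (trend, robust) in R 4.3.3. The fit had 1 mean per group over all 12 libraries, was two-sided and used Benjamini-Hochberg adjustment over all genes at 0.05. It was tested on simulated data.

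The members, lists, rules and tests were chosen with earlier results of these data known. Named members were the 5 highest and 5 lowest log2 differences per comparison, the 4 highest and 4 lowest levels, and paralog pairs; of each list the 2 highest genes were named where none passed. Other named genes were chosen for their roles or after their values were seen. Each library of a group carries its own animal code. Nothing says that the wild-type livers were paired with others. Animal codes in the deposited names pair DKO liver and tumor, and the correlations of their deviations by animal were 0.12, 0.35, 0.37 and 0.00. Tumors 2 and 3 correlated best with the liver of their own animal. Tumor 1 correlated best with DKO liver 4 and tumor 4 best with DKO liver 1. Shared stretches of 25, 35 and 50 bases were counted against GENCODE M21 transcripts for all 83 members. For each member the protein-coding GENCODE transcript of its gene nearest in length to the listed one was used. The lengths can differ, as for Rps20 (3706 bases against 502 listed), Rpl12 (1242 against 638) and Rpl35 (946 against 452). Python 3.11.15, numpy 2.4.6, pandas 2.3.3, scipy 1.17.1 and matplotlib 3.10.9 were used. Alternatives numbered 28. Some members and values are not reported here.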

Additional observations from a re-analysis of the deposited data

Results flagged for a closer look

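In 7 of 111 groups of 4 libraries checked for named members, 1 library lay far from the other 3 of its group, where chance gives about 1 in 20. Rpl23 was at 31.6 RPKM in DKO tumor 4 against 20.6 to 21.8 in the other tumors, and Rpl7 was at 60.9 RPKM in the same tumor against 35.9 to 37.8. Rps14 was at 183 RPKM in wild-type liver 3 against 113 to 125 in the other wild-type livers, and Rpl30 at 7.67 RPKM in that library against 3.57 to 4.17. The other cases were single reads in genes that are barely detected. Rpl39l was at 0.103 RPKM in DKO liver 1 and at 0.0869 RPKM in DKO tumor 3, and Rpl3l at 0.0679 RPKM in wild-type liver 4, each against 0 in the other 3 libraries of the group.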

How the results depend on the processing

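Of 80 members tested, 2 (Rpl6 and Rps2) passed for tumor against wild-type liver after median-of-ratios scaling, 2 (the same) after quantile normalization and 1 (Rpl13a) with the 8 libraries of the comparison alone. Over all 11351 genes these fits called 598, 478 and 303. Rpl6 was then at -0.97 and -1.01 (adjusted p = 0.0485 and 0.0443 in limma) and Rpl13a at -1.12 (adjusted p = 0.0456), where the smallest adjusted p over all alternatives ranged from 0.0443 to 0.288. No other alternative called a member in any comparison. Leaving out 1 library at a time, the members' median log2 difference ranged from -0.37 to -0.20 for tumor against wild-type liver, from -0.45 to -0.14 for tumor against DKO liver and from -0.14 to 0.13 for DKO liver against wild-type liver, with 0 members called throughout. Centring by exon length moved the first 2 medians to -0.03 and -0.01, and bins set without the members, an alternative added after seeing the data, gave -0.03 and -0.02. The 13 members at an unadjusted p under 0.05 for tumor against wild-type liver became 5 without wild-type liver 1 or tumor 1, 8 without tumor 2 or 3, 3 with the tag as covariate and 8 with voom. The 11 for tumor against DKO liver became 6 without tumor 1, 7 without DKO liver 3, 29 without DKO liver 4 and 1 with the tag as covariate. Without DKO animals 1 and 2 the 13 became 3 and the 11 became 0. How many of all genes had an unadjusted p under 0.05 in these fits is not given here. Calls over all genes at an adjusted p under 0.05 moved as well. For tumor against wild-type liver the 216 became 21 without wild-type liver 1 and 37, 20 and 413 without tumors 1, 2 and 3. They became 3 with the tag as covariate, 196 with voom and 10 without DKO animals 1 and 2. Numbers do not pair wild-type livers with others (correlations of deviations from -0.13 to 0.23). With the replicate number as a block 0 members passed in each comparison, and over all genes the block gave 71 calls for tumor against DKO liver and 128 for tumor against wild-type liver. It was fitted on the 8 libraries of a comparison, which gave 55 and 303 without the block, and all 12 libraries gave 1 and 216. Within L03 the median was -0.26 for tumor against wild-type liver; for tumor against DKO liver no fit within a tag was possible, since all tumors carry L03 and all DKO livers L02, and the tag as a covariate gave -0.18. Other causes were not tested. Members with few reads, 16 under 1 RPKM, limit what depth can show.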
